A study of Mus musculus with 9 samples.

Results

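The S100 family was followed through 10 of its genes in mouse lung. These were S100a8, S100a9, S100a1, S100a4, S100a6, S100a10, S100a11, S100a13, S100a16 and S100b, chosen by name from a table of 56263 genes, and all 10 passed the filter on low values that left 16080 genes for testing. The libraries came from lungs of male wild-type BALB/c mice, aged 6 to 8 weeks when bought, in 3 groups of 3 libraries (control, model and QJHTD). Model mice were exposed to the smoke of 6 cigarettes in 3 sessions of 30 min a day, and were given 20 µg of lipopolysaccharide (LPS), a bacterial endotoxin, into the trachea on days 1 and 14 of an experiment of 42 days. QJHTD mice had the same exposure and also received Qing-Jin-Hua-Tan decoction, a traditional Chinese herbal prescription, at the highest of the doses the study used. Control mice were not exposed. Per the paper, mice that received no drug were given an equal volume of vehicle into the stomach. Values are TPM, a measure of transcripts that is corrected for transcript length and sums to the same total in each library, so levels can be compared between genes.

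S100 proteins are small proteins, most of which bind calcium through EF-hand loops and act as dimers. Some work inside the cell, where they dock onto annexins, cytoskeletal proteins or channels when calcium rises. Others are released and act on receptors such as RAGE (encoded by Ager) and TLR4. S100A8 and S100A9 pair as calprotectin, a metal-binding antimicrobial complex that fills the cytosol of neutrophils.

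Because TPM sum to a fixed total, a few very abundant genes shift all others. Antibody and T-cell receptor segments held 0.296% to 0.605% of TPM in the controls and 36.2% to 43.7% in the model and QJHTD libraries, and Scgb1a1, the club cell secretoglobin, held 21.3% to 23.8% in the controls and 1.18% to 3.16% in the others. The median gene was 0.47 lower on the log2 scale in the model group than in the controls, and this shift was −0.01 after median-ratio rescaling, −0.15 after quantile normalization and 0.07 when TPM were recomputed without segments, hemoglobin and mitochondrial genes. Calls of members that change under these 3 other scalings are given with each comparison. The lung label held in the controls, where Ager, the alveolar type 1 marker, was at 1703 ± 298 TPM (SD, n = 3). The libraries are of lung tissue and not of sorted cells, so fewer cells of a type and less RNA per cell cannot be told apart. The paper does not say which part of the lung was taken.

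In the model group, S100a8 and S100a9 rose 62.4-fold and 44.7-fold in mean TPM and S100a1, S100a10, S100a13 and S100a16 fell, while S100a4, S100a6, S100a11 and S100b did not pass the test (limma, adjusted p under 0.05). Thus 6 of 10 members were called, 2 higher and 4 lower, where 73.1% of all tested genes were called (16.6% higher and 56.5% lower). The count of members called is therefore not above the background. The libraries of 7 of 10 members, those 6 and S100a11, did not overlap between the groups, as for 75.8% of all genes. The directions depended on the scaling. Under median-ratio rescaling 5 members were higher and 2 lower, with 30.5% and 30% of all genes called in these directions. Without segments, hemoglobin and mitochondrial genes 5 were higher and 2 lower, where 34.1% and 24.7% of all genes were called, and under quantile normalization 2 were higher and 5 lower, against 25.3% and 38.4%. The calls of S100a8, S100a9, S100a13 and S100a16 held under all 3.

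**Figure D1:**
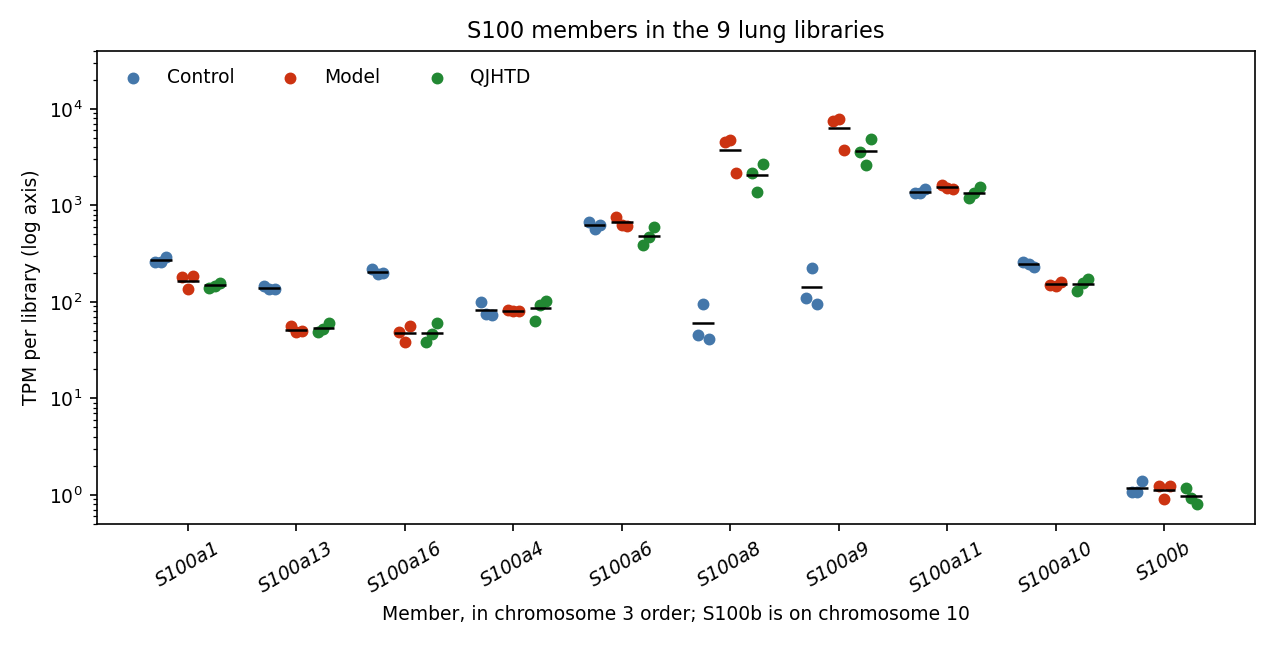
TPM of the 10 S100 members (log axis) in each of the 9 libraries, with points for single libraries and a black line for the group mean. S100a8 and S100a9 of the model and QJHTD groups stand above all control values (highest control 94.8 and 225.8 TPM), and S100a13 and S100a16 of these groups lie below all control values.

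S100a8 and S100a9, the calprotectin subunits, lie near each other on chromosome 3 on opposite strands, S100a8 at chr3:90668978-90670035 on the plus strand and S100a9 at chr3:90692632-90695721 on the minus strand (GRCm38, GENCODE M21). Their promoters are printed because these are the members that moved most. Each line holds the 250 bases before the RefSeq start site and the 30 after it (GRCm38.p6, chr3:90668821-90669100 on the plus strand and chr3:90695692-90695971 on the minus strand). Capitals mark matches on either strand to TATAAA, to the PU.1 core GAGGAA or to the C/EBP-like pattern TTNNGCAA.

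S100a8: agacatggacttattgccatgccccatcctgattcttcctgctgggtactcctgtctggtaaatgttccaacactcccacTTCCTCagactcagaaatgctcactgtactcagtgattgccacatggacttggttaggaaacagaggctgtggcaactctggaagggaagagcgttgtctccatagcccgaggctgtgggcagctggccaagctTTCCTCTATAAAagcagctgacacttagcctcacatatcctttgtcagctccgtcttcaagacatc
S100a9: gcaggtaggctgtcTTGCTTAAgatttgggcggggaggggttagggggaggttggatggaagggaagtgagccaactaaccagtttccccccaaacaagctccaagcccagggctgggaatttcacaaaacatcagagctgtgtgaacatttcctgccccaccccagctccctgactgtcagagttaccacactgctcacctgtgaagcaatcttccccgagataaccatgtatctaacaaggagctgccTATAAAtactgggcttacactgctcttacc

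The S100a8 sequence holds TATAAA from base −30 and GAGGAA on the other strand from bases −170 and −36, the latter ending where TATAAA begins. In S100a9 TATAAA starts on the annotated start site itself, and TTNNGCAA is matched on the other strand from base −236. Among 32851 promoter windows of 300 bases in the RefSeq table, 13.62% held TATAAA, 28.28% GAGGAA and 10.8% TTNNGCAA, so none of these letters is rare. Of the other members with a window (9 of 10 in all, S100a10 having none), S100a4 also held TATAAA, from base −31. GAGGAA was matched on either strand in S100a16 (from base −180), S100a11 (from base −153) and S100a4 (from base 19). TTNNGCAA was matched in S100a9 only.

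S100a8 was at 45.5, 94.8 and 41.6 TPM in control replicates 1 to 3. It was at 4510, 4699 and 2145 TPM in the model replicates. In the QJHTD replicates it was at 2146, 1386 and 2668 TPM. Every exposed library was above every control, and the third model library lay within the range of the QJHTD libraries. The log2 fold change of the model group over the controls was 5.96 ± 0.41 (SE, n = 3 per group), with a limma adjusted p of 3.4e-06.

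S100a9, the larger subunit, was at 109.2, 225.8 and 94.3 TPM in the controls. The model replicates had 7519, 7914 and 3766 TPM, and the QJHTD replicates 3582, 2605 and 4812 TPM. The same libraries were high and low as for S100a8, control replicate 2 being the highest of the controls for both. The log2 fold change of the model group over the controls was 5.51 ± 0.40 (limma adjusted p = 4.9e-06). Within the library, S100a9 moved from rank 427 to 1043 in the controls to rank 15 to 32 in the model group and 26 to 49 in the QJHTD group, counted by TPM from the most abundant gene.

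Both subunits together made up 6.49% ± 3.26 of the TPM of the 10 members in the controls, 77.6% ± 7.23 with exposure alone and 70.4% ± 6.03 with QJHTD (SD, n = 3). The members summed to 3142 ± 10.6 TPM in the controls, which is 0.314% of the library. In the model group they summed to 12892 ± 3786 TPM, or 1.29%, and in the QJHTD group to 8061 ± 1961 TPM, or 0.806%. The log2 sum was 1.99 higher in the model group than in the controls, with no overlap (two-sided exact permutation test, p = 0.1, the smallest that 3 against 3 libraries allow). Without S100a8 and S100a9 the sign turned on deposited TPM, the log2 sum of the other 8 being 0.12 lower in the model group (difference −0.12, exact permutation p = 0.2). This sum was not computed under the other scalings. S100a11 and S100a6, the most abundant of these 8, were called higher under median-ratio rescaling (0.70 and 0.63) and without segments (0.81 and 0.74). Under quantile normalization they were at −0.61 (called lower) and −0.31 (no call).

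The subunits did not rise in the same proportion. The ratio of S100a8 to S100a9 TPM was 0.417, 0.420 and 0.442 in the controls and 0.600, 0.594 and 0.570 in the model replicates. The QJHTD replicates had 0.599, 0.532 and 0.554. All exposed libraries were above all controls, and the QJHTD and model libraries overlapped. The log2 ratio was 0.46 higher in the model group than in the controls (exact permutation p = 0.1, the smallest possible), a value that no rescaling of whole libraries can alter. Between the QJHTD and model groups it differed by −0.07 (exact permutation p = 0.3).

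**Figure D2:**
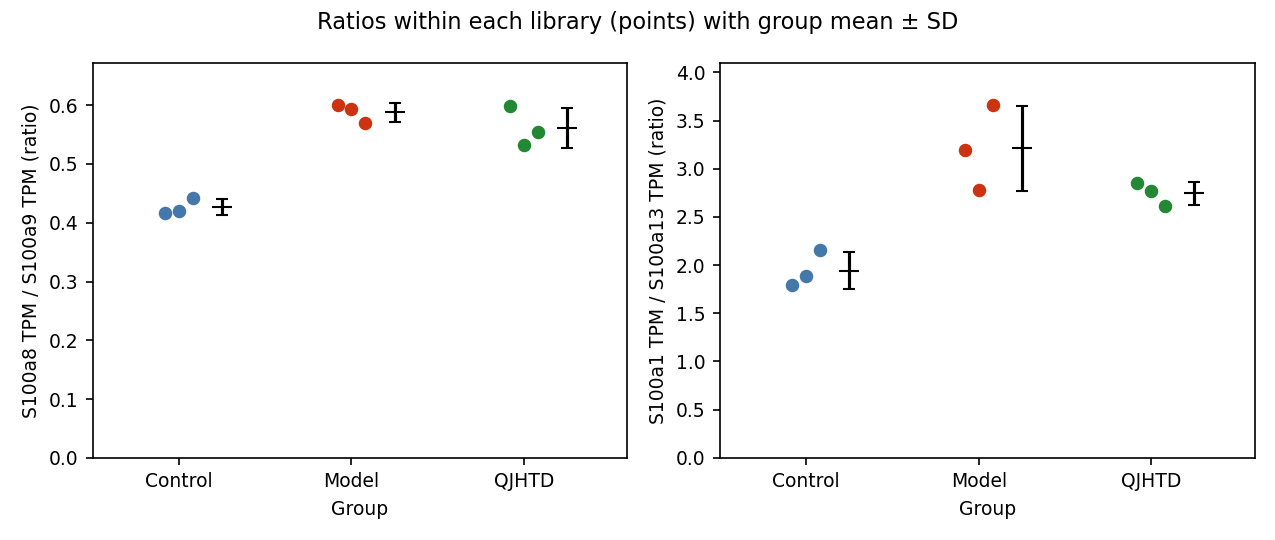
Ratio of S100a8 to S100a9 TPM (left) and of S100a1 to S100a13 TPM (right) in each library, with the group mean and SD beside the points. The left ratio lies at 0.417 to 0.442 in the controls and at 0.532 to 0.600 in the other 6 libraries, and the right ratio at 1.79 to 2.15 and at 2.62 to 3.66.

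Neutrophil markers moved with the calprotectin genes. All 16 genes of the neutrophil list rose in exposed mice without QJHTD (limma), their median log2 fold change being 3.75 beside −0.47 over all tested genes, and all 16 also rose under the 3 other scalings. Their mean log2(TPM + 1) was 1.53 to 1.96 in the controls, 4.77 to 5.53 in the model group and 4.43 to 4.90 in the QJHTD group. The summed TPM of the list was 100.4 to 795 in the controls, 1713 to 2316 in the model group and 993 to 1431 in the QJHTD group. The high control was replicate 3, in which Ltf, the secondary-granule protein lactoferrin, was at 768 TPM against 67.5 and 90.4 TPM in the other controls, while its S100a8 was the lowest of all libraries. The defining markers Ly6g and Mpo were at 0 in control replicate 1 and Elane was at 0 in control replicate 3. Monocyte and interstitial macrophage markers were higher too, 12 of 14 against the controls, and their median was 2.20 on the log2 scale. The part of cell number in the calprotectin values was not tested.

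Over the 9 libraries the genes most like the mean of S100a8 and S100a9 in log2(TPM + 1) were Socs3, a feedback inhibitor of cytokine signalling (Pearson r = 0.9986), Retnlg, Mrgpra2b, C5ar1, the receptor of the complement fragment C5a, and Mmp9, gelatinase B, of which Retnlg, Mrgpra2b and Mmp9 belong to the neutrophil list. Over the 6 model and QJHTD libraries alone they were Mboat7 (r = 0.996), Rnd1, Hrh2, Ehd1 and Socs3. The mean of the neutrophil list had r = 0.997 over 9 and 0.990 over 6 libraries, and Csf3r, the G-CSF receptor, ranked 27 over 9 and 217 over 6. These are descriptions over libraries that share groups and total, with no test. Socs3 followed the calprotectin genes at 12.3 to 15.9 TPM in the controls, 70.6 to 103.9 in the model group and 58.2 to 86.0 in the QJHTD group.

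**Figure D3:**
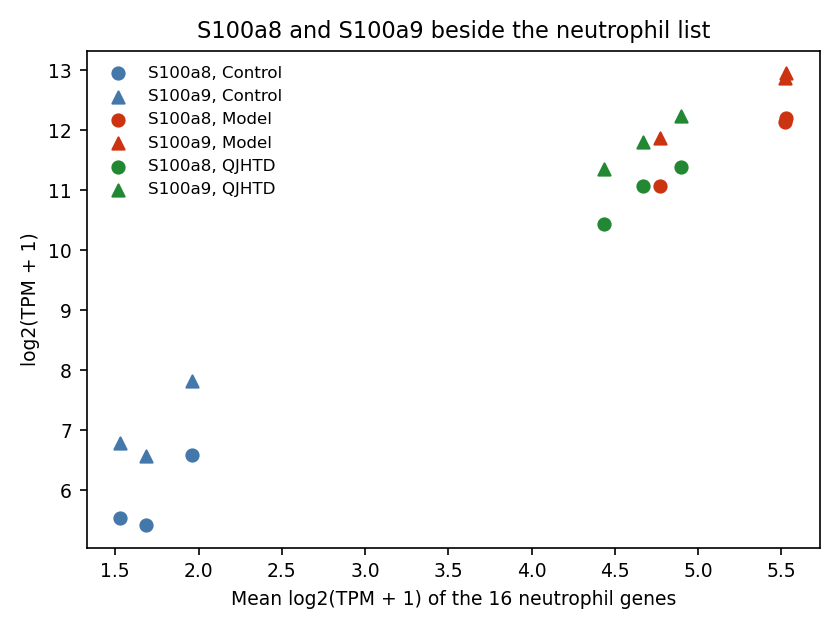
S100a8 (circles) and S100a9 (triangles) in log2(TPM + 1) against the mean log2(TPM + 1) of the 16 neutrophil genes, 1 point per library and gene, coloured by group. Controls lie at a list mean of 1.53 to 1.96, and the model and QJHTD libraries at 4.43 to 5.53.

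Among receptors of released S100 proteins and their adaptors, 5 of 10 rose and 5 fell in the model mice. Of all genes 16.6% rose and 56.5% fell. The median of the list was 0.09 on the log2 scale beside −0.47 over all genes. Under median-ratio rescaling 6 were higher and 2 lower, against 30.5% and 30% of all genes. Without segments the counts were also 6 and 2 (34.1% and 24.7%), and under quantile normalization 5 and 5 (25.3% and 38.4%). The arm of the LPS and S100A8/S100A9 receptor TLR4 was higher throughout. Cd14, which hands ligands to TLR4, was at 22.9, 30.7 and 33.7 TPM in the controls, at 326, 314 and 225 TPM in the model group, and at 214, 152 and 226 TPM in the QJHTD group. The groups did not overlap between controls and exposed mice, and Cd14 rose by 3.26 on the log2 scale (limma adjusted p = 2.3e-06). Ly96, the TLR4 partner MD-2, rose by 1.55, the adaptor Myd88 by 1.10, Tlr4 itself by 0.65 and the adaptor Ticam1 by 0.45, and these calls held under the 3 other scalings.

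Ager, the gene of RAGE, went the other way. It was at 1699, 2003 and 1407 TPM in the controls, at 522, 479 and 456 TPM in the model group, and at 513, 603 and 634 TPM in the QJHTD group. The control values lay above all others, and Ager fell by 1.80 on the log2 scale (limma adjusted p = 1.0e-05). In lung Ager is chiefly a gene of alveolar type 1 cells, and 11 of 12 other markers of these cells also fell (median −1.54), with summed TPM of 2605 to 3134 in the controls and 723 to 863 in the model group. Of all genes 56.5% fell, with a median of −0.47 over all genes. The part of alveolar type 1 cells in the Ager value was not tested. Cd36, a scavenger receptor that takes up arachidonic acid carried by S100A8/S100A9, fell by 1.63. The calls of Ager and Cd36 held under the 3 other scalings, whereas those of Alcam (−0.68) and the Basigin relative Emb (−0.52) were lost under median-ratio rescaling and without segments, and that of Bsg, a receptor of S100A9, turned from −0.27 to 0.26 under median-ratio rescaling and 0.37 without segments.

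**Figure D4:**
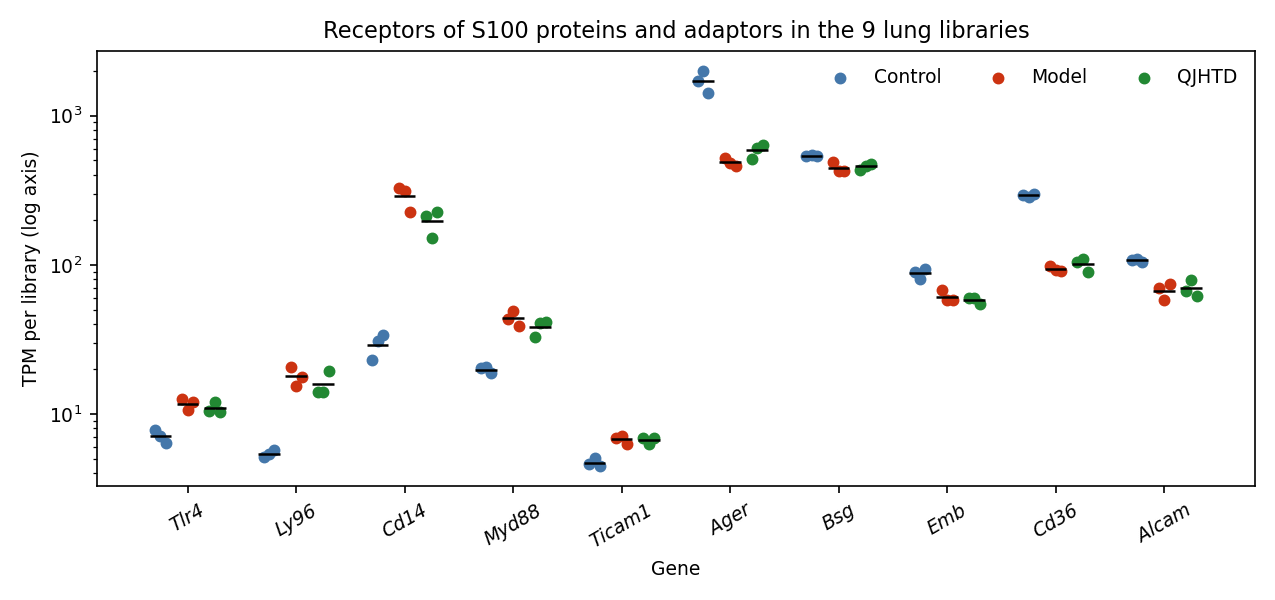
TPM (log axis) of 10 receptors of S100 proteins and their adaptors in each library, with a black line for the group mean. Cd14 lies at 22.9 to 33.7 TPM in the controls and at 152 to 326 TPM in the other libraries, while Ager lies at 1407 to 2003 TPM in the controls and at 456 to 634 TPM in the others.

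S100A1, known from heart muscle where it acts on the ryanodine receptor and the calcium pump, and S100A13, which takes part in the non-classical release of FGF1 and IL-1α, are encoded head to head. S100a1 lies at chr3:90511034-90514392 on the minus strand and S100a13 at chr3:90514435-90524581 on the plus strand, with 42 bases between the GENCODE models. The 104 bases between the RefSeq start sites (chr3:90514331-90514434, GRCm38.p6, plus strand) are shown because both genes start from it in opposite directions. It held no match on either strand to the 3 patterns above. The GC box (GGGCGG), the CCAAT box (spelled as its name) and the AP-1 site (TGANTCA), which 35.66%, 37.41% and 7.808% of the windows held, were not matched either, so nothing is in capitals.

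S100a1 to S100a13: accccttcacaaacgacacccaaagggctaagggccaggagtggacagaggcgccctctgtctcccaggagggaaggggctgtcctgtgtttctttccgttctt

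S100a13 was at 144.3, 137.0 and 135.5 TPM in the controls, at 56.2, 48.3 and 50.2 TPM in the model group and at 48.8, 52.4 and 60.6 TPM in the QJHTD group. Every control lay above every exposed library. The gene fell by 1.42 on the log2 scale (SE 0.10, limma adjusted p = 4.0e-06), and by 0.89 under median-ratio rescaling, 1.35 under quantile normalization and 0.78 without segments, hemoglobin and mitochondrial genes.

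S100a1 was at 258.4, 258.3 and 291.9 TPM in the controls, at 179.3, 134.5 and 183.7 TPM in the model group and at 139.3, 145.1 and 158.5 TPM in the QJHTD group. Controls and exposed libraries did not overlap, and the gene fell by 0.71 on the log2 scale (limma adjusted p = 0.001). The call was lost under median-ratio rescaling (−0.18, adjusted p = 0.185) and without segments (−0.06, adjusted p = 0.594). Heart muscle markers, of which 12 of 13 tested fell in the model group (median −3.64), had summed TPM of 765 to 2492 in the controls and 39.3 to 205.5 in the model group, and their part in the S100a1 value was not tested. The ratio of S100a1 to S100a13 was 1.94 ± 0.19 in the controls, 3.21 ± 0.44 in model mice and 2.75 ± 0.12 with QJHTD (SD, n = 3). The head-to-head genes thus did not keep 1 proportion on deposited TPM, though the ratio was not tested. Rescaling of whole libraries leaves it unchanged, but quantile normalization does not. Under the latter S100a1 was at −0.94 and S100a13 at −1.35 in model against control.

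S100a16, a broadly expressed member that binds calcium through a single functional loop, fell furthest. Its controls were at 220.1, 193.9 and 198.7 TPM. The model group was at 48.8, 38.5 and 56.8 TPM and the QJHTD group at 38.0, 46.0 and 59.7 TPM. The exposed groups overlapped each other and lay below every control. The log2 fold change of the model group was −2.08 ± 0.18 (SE, limma adjusted p = 1.3e-05) and remained between −2.11 and −1.45 under the 3 other scalings. S100a16 lies at chr3:90537254-90543151 on the plus strand, beyond S100a13 and S100a14.

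**Figure D5:**
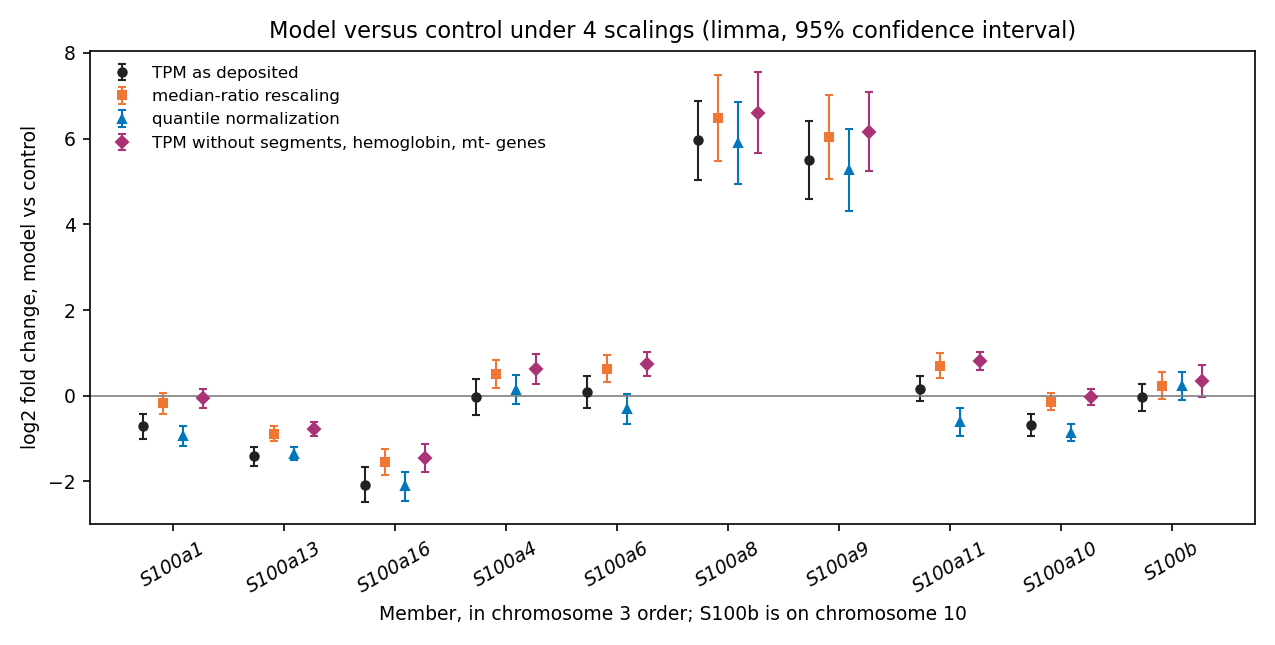
Log2 fold change of the model group over the controls with its 95% confidence interval for the 10 members (limma), under the deposited TPM and 3 other scalings. S100a8 and S100a9 stay above 0 and S100a13 and S100a16 below 0 under all 4, while S100a11 is at 0.16 with deposited TPM, at 0.70 and 0.81 under median-ratio rescaling and without segments, and at −0.61 under quantile normalization.

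S100A10, the annexin A2 partner p11 that brings channels and plasminogen to the membrane, had its gene at 256.0, 245.1 and 230.6 TPM in the controls. The model group was at 148.8, 146.8 and 160.9 TPM and the QJHTD group at 128.6, 155.6 and 174.1 TPM. The controls stood above all exposed libraries and S100a10 fell by 0.68 (limma adjusted p = 6.8e-04), a call lost under median-ratio rescaling (−0.14, adjusted p = 0.185) and without segments (−0.03, adjusted p = 0.758). Its partner Anxa2 did not pass the test at 485 ± 6.52 TPM in the controls and 441 to 520 TPM in the model group, although it was called higher under median-ratio rescaling (0.49) and without segments (0.61) and lower under quantile normalization (−0.45). Kcnk3, a potassium channel that p11 traffics, was at 11.1 to 11.9 TPM in the controls and 1.33 to 1.59 in the model group, a fall of 2.34 that held under all scalings.

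S100A11 and S100A6, partners of annexins A1 and A11 among others, were the most abundant members of control lung. S100a11 was at 1335, 1329 and 1463 TPM in the controls, at 1636, 1523 and 1464 TPM in the model group and at 1185, 1336 and 1539 TPM in the QJHTD group. The lowest model library (1463.6 TPM) was just above the highest control (1462.5 TPM), and the log2 difference of 0.16 did not pass the test (limma adjusted p = 0.277). It was called higher under median-ratio rescaling (0.70) and without segments (0.81) and lower under quantile normalization (−0.61, adjusted p = 0.0045). S100a6 was at 675.7, 571.1 and 621.2 TPM in the controls and at 761.0, 625.3 and 615.3 TPM in the model group. These overlapped, with a log2 difference of 0.10 (95% confidence interval −0.28 to 0.47, limma adjusted p = 0.612), which was called under median-ratio rescaling (0.63) and without segments (0.74) and turned to −0.31 without a call under quantile normalization.

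S100A4, a partner of non-muscle myosin IIA made by fibroblasts, macrophages and T cells among others, had its gene at 100.4, 74.8 and 73.1 TPM in the controls and at 82.0, 79.9 and 79.5 TPM in the model group, all within the control range. The log2 difference of −0.02 did not pass the test (95% confidence interval −0.44 to 0.39, limma adjusted p = 0.910) and was called higher under median-ratio rescaling (0.50) and without segments (0.62). The S100a4 gene overlaps the predicted gene Gm42674 on the same strand, so reads could be split between them. Markers of its sources did not share 1 direction on deposited TPM. Fibroblast markers had 3 of 13 higher and 9 lower, T cell markers 9 of 12 higher and none lower, and monocyte and interstitial macrophage markers 12 of 14 higher. Of all genes 16.6% were higher and 56.5% lower. Fibroblast markers had 4 higher and 6 lower both under median-ratio rescaling (30.5% and 30% of all genes) and without segments (34.1% and 24.7%). The part of these cell types in the S100a4 level was not tested.

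S100b, known from glia, was close to the filter at 1.08, 1.06 and 1.40 TPM in the controls, 1.23, 0.91 and 1.22 TPM in the model group and 1.17, 0.92 and 0.81 TPM in the QJHTD group. All groups overlapped, and the log2 difference of −0.04 between the model and control groups did not pass the test (95% confidence interval −0.35 to 0.27, limma adjusted p = 0.801). All 7 tested Schwann cell markers fell with deposited TPM (4 of 7 under each of the other scalings), and 1 of them was called higher without segments. S100b is the only member on chromosome 10 (chr10:76253853-76261159, plus strand) and overlaps Dip2a on the other strand, and no source used here says whether reads were counted by strand.

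The order of the members differed between the groups. In the controls S100a11 led with 1375 ± 75.6 TPM and S100a6 followed with 623 ± 52.3, then S100a1, S100a10, S100a16, S100a9, S100a13, S100a4, S100a8 and S100b, where the neighbours S100a16 and S100a9, S100a9 and S100a13, and S100a4 and S100a8 overlapped, and S100a9, with its wide range, also reached S100a4 and S100a8. In the model group S100a9 and S100a8 led with 6400 ± 2289 and 3785 ± 1423 TPM and S100a11 came next with 1541 ± 87.7. There S100a9 overlapped S100a8, S100a1 overlapped S100a10, and S100a13 overlapped S100a16. In the QJHTD group the means were in the same order but for S100a10 and S100a1, which overlapped. There S100a9 also overlapped S100a8, S100a8 at 2067 ± 644 TPM overlapped S100a11 at 1353 ± 178, and S100a13 overlapped S100a16.

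Of 7 other S100 genes only S100a14 and S100g passed the filter. S100g, the calcium-buffering protein calbindin-D9k, was at 278.3, 189.0 and 195.3 TPM in the controls, at 118.9, 137.6 and 121.3 TPM in the model group and at 130.6, 124.8 and 125.5 TPM in the QJHTD group. The controls were above all others, and it fell by 0.79 (limma adjusted p = 0.001), a call lost under median-ratio rescaling and without segments. S100a14, which lies between S100a13 and S100a16, was at 16.8 ± 3.70 TPM in the controls and 21.4 ± 1.59 in the model group and did not pass the test (0.35, limma adjusted p = 0.143), while the 3 other scalings called it higher (0.73 to 0.98). S100a3 was at 0.94 to 2.52 TPM in the controls and at most 0.99 TPM elsewhere, S100a5, S100a7a and S100z did not exceed 0.79 TPM in any library, and S100a7l2 was listed at 0.

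Of 13 tested partners inside the cell 4 rose and 9 fell in model mice (median −1.23), where 16.6% of all genes rose and 56.5% fell with a median of −0.47, and 4 rose and 7 fell both under median-ratio rescaling and without segments. Besides Kcnk3, Fgf1, the growth factor that S100A13 helps to export, fell by 2.67, from 82.6 ± 7.09 to 12.4 ± 3.17 TPM. Myh10, the heavy chain of non-muscle myosin IIB, fell by 2.61, while Myh9, the myosin IIA target of S100A4, rose by 0.40. Ahnak, a scaffold bound by the S100A10 and annexin A2 complex, fell by 1.79, and Il1a, another S100A13 cargo, rose by 2.15 from a mean of 6.29 TPM to 31.9 TPM. Of 10 tested annexins, Anxa1 rose by 0.60 and 6 fell by 0.39 to 0.54, close to the 56.5% of all genes that fell, and their median of −0.46 was close to that of all genes (−0.47). Among those that fell were Anxa11, Anxa7, Anxa6 and Anxa5. None of these 6 falls was called under median-ratio rescaling or without segments, where 3 and 5 annexins were higher and none lower. In the epidermal differentiation genes of the same region of chromosome 3, only 3 of 14 passed the filter, of which Sprr2a3, a cornified envelope protein, rose by 5.31 and Sprr1a by 0.86, and Tchh did not pass the test.

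QJHTD-treated mice were compared with the model group to ask whether the decoction altered these levels. None of the 10 members was called (limma), where 0.0124% of all genes were, and 1 had an unadjusted p under 0.05, where 6.84% of all genes did. The comparison shares its model libraries with the one above. S100a8 had a mean of 2067 TPM with QJHTD against 3785 in the model group, a log2 difference of −0.84 (95% confidence interval −1.76 to 0.08, limma adjusted p = 0.751). S100a9 had 3666 against 6400 TPM, a log2 difference of −0.77 (95% confidence interval −1.68 to 0.13, limma adjusted p = 0.762). Of the model libraries, replicate 3 lay within the QJHTD range for both genes and replicates 1 and 2 above it. Leaving libraries out in turn gave log2 differences of −1.21 to −0.58 for S100a8 and −1.12 to −0.55 for S100a9, the extremes being without model replicate 3 and without QJHTD replicate 2, with no call in any of these fits.

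Between the QJHTD and model groups the neutrophil markers had a median log2 difference of −0.67 beside 0.05 over all genes. None of the 16 was called, and 8 had an unadjusted p under 0.05, all lower, where 6.84% of all genes had one in either direction. The 16 are markers of 1 cell type in the same libraries and are not independent of each other. Retnlg, named above for its correlation with the calprotectin genes over these same libraries, was at 548, 535 and 238 TPM in the model group. In the QJHTD group it was at 236, 207 and 297 TPM. Its groups overlapped through model replicate 3, as those of S100a8 and S100a9 did, which is no separate observation given that correlation. For Csf3r, Cxcr2, Ly6g, Ltf, Cxcr1, Trem1, Itgam and Mrgpra2b all QJHTD libraries lay below all model libraries. The remaining genes of the list overlapped between these groups. Of all genes, 12.3% had libraries that did not overlap. The log2 summed TPM of the 10 members differed by −0.66 (exact permutation p = 0.2) and by −0.23 without S100a8 and S100a9 (exact permutation p = 0.3).

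S100a6 was the member with an unadjusted p under 0.05. It was at 388.7, 471.8 and 595.3 TPM with QJHTD, all below the model range of 615.3 to 761.0 TPM, and its log2 difference was −0.47 (95% confidence interval −0.85 to −0.10, unadjusted p = 0.0184 and adjusted p = 0.678 in limma). Its QJHTD and model libraries did not overlap, which held for 1 of 10 members and 12.3% of all genes. The differences of the other 7 members lay between −0.19 for S100a11 and 0.07 for S100a4. The intervals for the genes that fell in the model group were −0.45 to 0.14 for S100a1, −0.26 to 0.26 for S100a10, −0.16 to 0.29 for S100a13 and −0.42 to 0.40 for S100a16. None of the genes in the receptor, annexin and partner lists was called between the QJHTD and model groups. Cd14 had a log2 difference of −0.55 (unadjusted p = 0.0272) and Ager one of 0.26 (unadjusted p = 0.114), both with overlapping libraries and with limma adjusted p of 0.687 and 0.786.

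Against the controls, which it shares with the first comparison, the QJHTD group had 6 of 10 members called, 2 higher and 4 lower, where 70.7% of all genes were called (17% higher and 53.7% lower). S100a8 rose by 5.12 and S100a9 by 4.73 on the log2 scale. S100a16 fell by 2.09, S100a13 by 1.35, S100a1 by 0.86 and S100a10 by 0.68. These directions also depended on the scaling. Under median-ratio rescaling 4 members were higher and 3 lower (30.8% and 29.6% of all genes), without segments 4 and 2 (36.6% and 22.5%), and under quantile normalization 2 and 6 (25.3% and 37.8%). S100a8, S100a9, S100a13 and S100a16 were called in the same direction under all 3. The call of S100a10 was lost under median-ratio rescaling and that of both S100a1 and S100a10 without segments. S100a4, at 0.04 without a call on deposited TPM, was called higher under median-ratio rescaling (0.52) and without segments (0.70). S100a11, at −0.03, was called higher under these (0.46 and 0.63) and lower under quantile normalization (−0.77). S100a6, at −0.38 (limma adjusted p = 0.065), was called lower under quantile normalization (−0.81) and when QJHTD replicate 3 was left out (−0.54). S100b was at −0.15 and was called under none of them. The QJHTD libraries of the 6 genes called on deposited TPM lay wholly outside the control range, as for 74.8% of all genes.

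Within groups, the deviations of S100a8 and S100a9 from their group means ran together over the 9 libraries (r = 0.995), as did those of S100a6 with S100a13 (0.954) and with S100a11 (0.877) and of S100a4 with S100a10 (0.873). Those of S100a8 and S100a6 did not (0.128). These values are descriptions over libraries that share a fixed total.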

How the data were processed

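The authors deposited TPM per gene and library, made from reads trimmed with fastp and quantified with RSEM, per the labels. Versions and strand setting: not given in the sources used here. Without read counts the depth is unknown, and precision rests on the spread between libraries. GRCh38.p6, the build that the submitters' processing notes give, is human and the gene identifiers are murine, so coordinates were taken from GENCODE M21 (GRCm38). Gene length and group mean columns were not used. The libraries were taken as separate mice, which the labels do not state, so p-values measure the spread between these samples.

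The filter kept genes that reached 1 TPM in 3 or more libraries. Values were taken as log2(TPM + 1) and fitted with limma 3.58.1 (R 4.3.3), trend included, as a single model of all groups (6 residual and 2.88 prior degrees of freedom). Adjusted p-values are Benjamini-Hochberg over all 16080 genes, and fold changes on this scale understate low genes. "Rose" and "fell" mean an adjusted p under 0.05. Ratios and sums were compared with two-sided exact permutation tests. The procedure was tested on simulated data. Members and lists were chosen with earlier results of these data known.

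The rule for named genes took all members, other S100 genes, up to 4 genes per list with the smallest p in model against control, receptors and partners of members, and the 5 genes most correlated with S100a8 and S100a9. Cell type lists without a result above were club cell (8 of 9 lower and 0 higher in model mice), ciliated cell (12 of 12 and 0), adipocyte (8 of 8 and 0), mesothelial cell (7 of 10 and 0), chondrocyte (2 of 2 and 0) and alveolar macrophage (5 of 12 and 4). Alternatives were other pseudocounts, filters, scalings and thresholds, fitting just the compared groups, no trend, a replicate block and libraries left out. Promoters are from RefSeq, GRCm38.p6. Tables were handled with Python 3.11.15, pandas 2.3.3, numpy 2.4.6, scipy 1.17.1 and matplotlib 3.10.9.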

Additional observations from a re-analysis of the deposited data

How the results depend on the processing

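The number of members called was 6, 0 and 6 in the model and control, QJHTD and model, and QJHTD and control comparisons. Leaving each library out in turn gave 6, 0 and 6 to 7, the 7 arising without QJHTD replicate 3. The members called higher and lower in model against control were 2 and 4 with deposited TPM, 5 and 2 under median-ratio rescaling and without segments, hemoglobin and mitochondrial genes, and 2 and 5 under quantile normalization. Without S100a8 and S100a9 the difference of the log2 summed TPM in model against control was −0.12 in place of 1.99, both on deposited TPM. Among the members, the values whose sign turned had not passed the test on deposited TPM. In model against control S100a11 was still called higher under median-ratio rescaling (0.70) and lower under quantile normalization (−0.61), as was Anxa2 (0.49 and −0.45). Of the receptor, annexin and partner genes, Bsg, Anxa3 and Anxa11 were called lower on deposited TPM and higher under another scaling. Bsg is given above, and Anxa3 and Anxa11 were at −0.39 and −0.43 on deposited TPM but 0.26 and 0.20 without segments. The same held for 1 Schwann cell marker. In model against control S100a4 was 0.50, 0.14 and 0.62 under median-ratio rescaling, quantile normalization and without segments, S100b was 0.23, 0.22 and 0.35, and S100a6 and S100a11 were −0.31 and −0.61 under quantile normalization. With single libraries left out S100a4 ranged from −0.11 to 0.12, S100a6 from −0.0021 to 0.16 and S100b from −0.079 to 0.033. In QJHTD against model the ranges were −0.073 to 0.27 for S100a4, −0.10 to 0.11 for S100a10, −0.024 to 0.13 for S100a13 and −0.18 to 0.14 for S100a16. Without segments S100a10 and S100a16 were 0.0080 and 0.0018 there. Without model replicate 2 and QJHTD replicate 1 together, the libraries lowest in ciliated-cell genes, S100b was 0.033 in model against control and S100a10 was 0.088 in QJHTD against model. In QJHTD against control S100a6, S100a11 and S100b were 0.11, 0.46 and 0.10 under median-ratio rescaling and 0.28, 0.63 and 0.22 without segments, and S100b was 0.087 under quantile normalization. With single libraries left out S100a4 ranged from −0.098 to 0.25 and S100a11 from −0.13 to 0.062 there, and S100a11 was 0.062 without model replicate 2 and QJHTD replicate 1 together.

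Replicate numbers are shared between groups, but same-numbered samples did not deviate together (correlations of −0.103 to 0.089), so the numbers were not taken as pairs. With a replicate block 6, 0 and 6 members were called in the 3 comparisons, and the block changed no call of a member. In the sign-flip test within replicate numbers the log2 ratio of S100a8 to S100a9 (0.46) and the log2 sum (1.99) in model against control each had an exact p of 0.25, the smallest that 3 pairs allow.

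TPM carry no depth, so the precision of S100b, near 1 TPM, could not be judged from counts. With 3 libraries a group the interval of the QJHTD and model difference ran from −1.76 to 0.08 for S100a8.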
